A study of Mus musculus with 54 samples.

Results

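Brain and kidney of naturally aged mice were set side by side at baseline, in animals that had received the vehicle without the drug. The samples were chosen by tissue, by the word vehicle in their titles and by the aged cohort, which leaves out the APPSWE mice and their littermates. This gave 11 of the 54 RNA-seq samples of the series, 6 brains (samples 027 to 032) and 5 kidneys (samples 045 to 049). All came from male BL6 mice of about 20 months, bought aged, housed singly on regular chow and injected intraperitoneally with vehicle (DMSO, PEG400 and saline) every day for 14 days. The wider study asked what Cmpd60, a selective inhibitor of the histone deacetylases HDAC1 and HDAC2, does in aged organs. For the kidneys the treatment field of the labels is the reverse of the titles and source names, and the titles were followed here. The kidneys that this field calls vehicle are those titled Cmpd60 (samples 050 to 055). Where they are used below, vehicle brain is set against kidney that by its title was drug-treated. No label says which brain and which kidney came from the same mouse, and none says which part of the brain was taken.

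Brain is built of neurons that release transmitter at synapses, and of glia: oligodendrocytes wrap axons in myelin, astrocytes clear glutamate and potassium, and microglia are the resident immune cells. The kidney filters blood through podocytes of the glomerulus and then recovers solutes along a chain of tubule segments. The proximal tubule takes back glucose, amino acids, phosphate and filtered protein, the thick ascending limb and distal convoluted tubule recover salt, and the collecting duct adjusts water and acid. In bulk tissue of this kind, fewer cells of a type and less RNA per cell cannot be told apart.

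Depth was similar in both tissues, at 26402957 to 32344641 counts per brain and 25164965 to 38643881 per kidney. Levels are given below as counts per 1000000 (CPM, scaled between samples with TMM) with SD over n = 6 brains and n = 5 kidneys, and differences as log2 brain minus kidney with SE. A gene was called when edgeR's quasi-likelihood test gave a Benjamini-Hochberg adjusted p under 0.05, and was counted as over 4-fold when a second test against a log2 difference of 2 did so too. The p-values measure the spread between these samples. Kidney sample 049 stood apart from the other kidneys on the second principal component (83.2 against -30.8 to -9.93 in them), which carried 1.53% of the variance against 93.2% for the component that separated the tissues. It had the fewest genes with a count (20069, against up to 23062) at the highest depth. Of the circadian clock genes, chosen after their values were seen, Arntl was at 3.41 CPM in it against 8.53 to 27.7 in the other kidneys and 31.3 to 34.8 in the brains, and Dbp was at 118 CPM against 18.8 to 79.1 in the other kidneys. Whether its place comes from the time of day, the animal or the library was not tested.

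The labelled tissues carried their defining genes. Snap25, a SNARE protein of synaptic vesicle fusion, lay between 2149 and 2494 CPM in the brains with a median of 2343. In the kidneys a single read was counted, in sample 047, and the other 4 samples had none. The ratio of the summed levels was 325000 (95% counting interval 58400 to 12900000). Mbp, the myelin basic protein, ranged from 2885 to 3535 CPM in brain with a median of 2919, and was at 26.7, 25.3, 19.6, 22.2 and 24.3 CPM in the 5 kidneys. The groups were far apart (log2 7.00 ± 0.11, adjusted p = 5.22e-19), and yet the kidney level was not at the floor. Umod, the protein that the thick ascending limb secretes into urine, was at 4399, 4747, 4950, 4420 and 5568 CPM in the kidneys and had no read in any brain, at least 290000-fold higher in kidney. Here and below such a bound takes 3 counts over the whole group without reads as its floor, and covers counting error only. Lrp2, the megalin receptor that takes up filtered protein in the proximal tubule, was at 2706, 3120, 2308, 2737 and 2788 CPM in kidney and between 0.572 and 1.33 CPM in brain (log2 -11.67 ± 0.15, adjusted p = 9.58e-20).

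**Figure D1:**
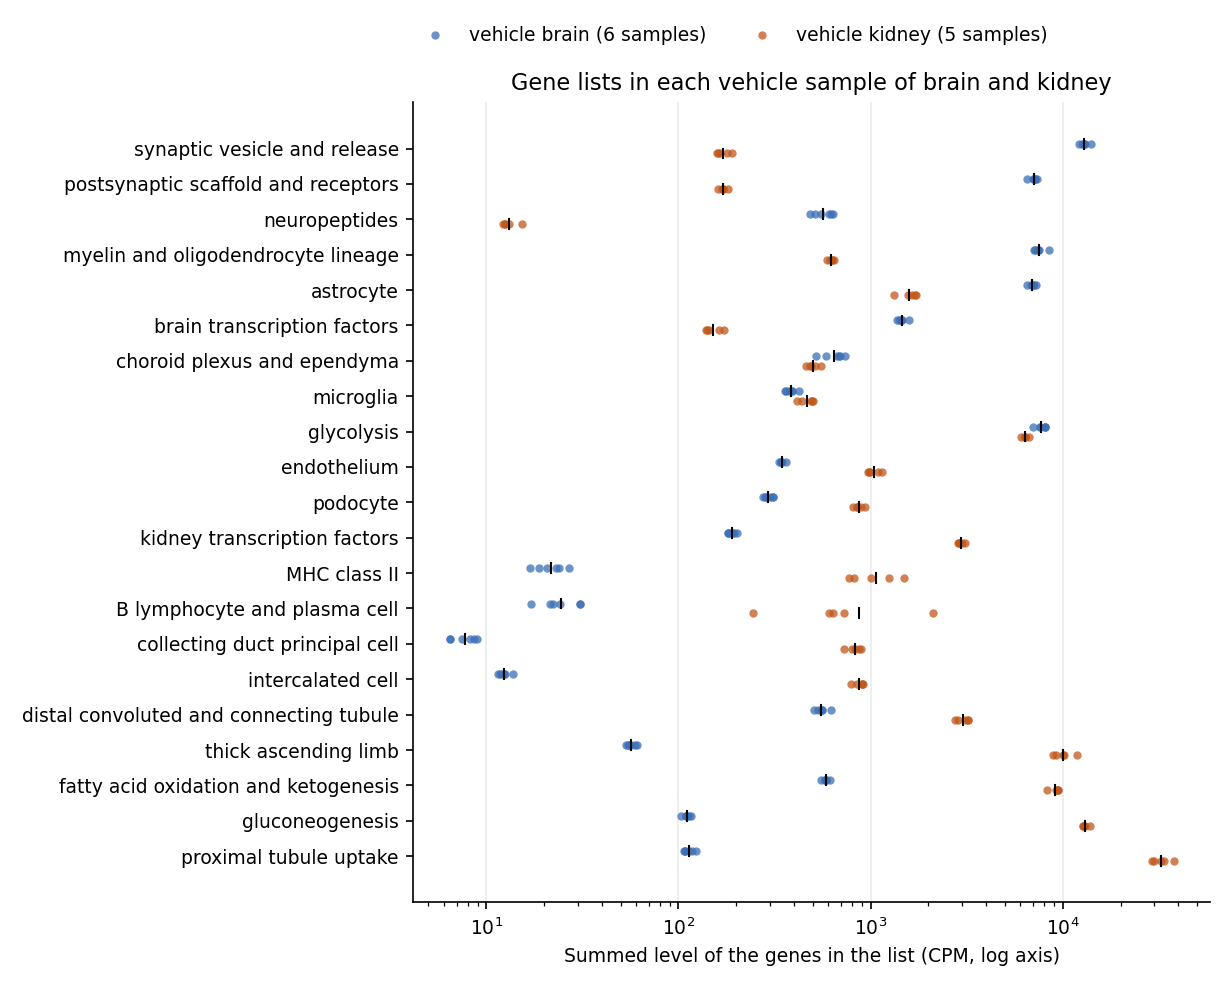
Summed CPM of the genes of each list (log axis) in every sample, brains and kidneys as separate points. The neuronal and myelin lists lie higher in all 6 brains and the tubule, gluconeogenesis, fatty acid oxidation and endothelium lists higher in all 5 kidneys. Glycolysis lies higher in brain, and the microglia and choroid plexus lists overlap between the tissues.

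Most of the transcriptome differed. Of 24067 genes tested, 10401 (43.2%) were higher in brain and 8983 (37.3%) higher in kidney, and 4683 were not called. Over 4-fold differences were found for 5046 genes in brain (21.0%) and 3140 in kidney (13.0%). All 6 brains exceeded all 5 kidneys at 8560 genes (35.6%), and all kidneys exceeded all brains at 7524 (31.3%). These shares are the background for every list below. Lists named for a tissue were picked as its known genes, so their direction is no independent evidence. The median difference over all tested genes was 0.17. With 12 reference genes setting the scale it was 0.63, the calls were 12994 in brain and 6712 in kidney, and brain held 65.9% of all calls against 53.7%. On the main scale, 4 of these 12 genes were themselves called higher in brain and 7 in kidney, with a median of -0.51. They were thus not constant between the tissues on the main scale. Directions that turn on the reference-gene scale are named with their gene below. The directions were uneven at the extreme: 1695 of the over 4-fold brain genes had no read in any kidney, whereas 446 of the kidney genes had none in any brain. At the other end, 5351 called genes differed by less than 1 log2 unit.

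Kidney concentrated its reads on fewer genes. With every sample thinned to 25164965 counts, 25249 ± 424 genes were detected in brain and 21921 ± 1205 in kidney. The 10 genes with the most reads took 4.39 ± 0.18% of the counts in brain and 9.60 ± 0.86% in kidney, and the first 100 took 15.8 ± 0.18% and 24.5 ± 1.11%. None of these overlapped between the tissues (exact permutation test over all splits, two-sided, p = 0.00216, the smallest the design allows, 0.00241 adjusted over all values tested this way). In both tissues mitochondrial transcripts such as mt-Co1 and mt-Cytb were among the most counted. Mbp was among the first 5 of brain. Among the most counted of kidney were also Gpx3, the secreted glutathione peroxidase of plasma (17664, 19334, 19815, 19942 and 20527 CPM, against 14.6 to 22.1 in brain), and Kap, an androgen-regulated protein of the proximal tubule (9650 ± 1888 CPM, with 8 reads over all brains).

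The single genes with the largest differences, among those of at least 10 CPM, had next to no reads in the other tissue. In brain they included Snap25, the GABA transporter Slc6a11 (276 ± 29.5 CPM, at least 12000-fold), the myelin gene Mobp, secretogranin Scg2 (360 ± 28.5 CPM, at least 16000-fold), the neurite protein Nrsn1, beta-synuclein Sncb, the repressor Scrt1, the matrix proteoglycan Bcan and the receptor subunit Grin2a. In kidney they were Umod, Pck1, Cyp2j5, Keg1 (1400 ± 154.9 CPM, at least 85000-fold), the kidney cadherin Cdh16 (1143 ± 86.6 CPM, at least 69000-fold), Miox, Akr1c21, Cyp4a10, Kap and the amino acid carrier Slc7a13. Each had between 0 and 8 reads in all samples of the other tissue.

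Neuronal genes gave the widest gaps in favour of brain. Each of the 20 genes of synaptic vesicles and release was called higher in brain and over 4-fold so, with a median difference of 9.21. Their summed level was 12926 ± 668 CPM in brain and 170 ± 13.4 in kidney. The calcium sensor Syt1 was at 1162 ± 67.6 against 0.492 ± 0.170 CPM, the complexin Cplx1 at 629 ± 45.2 against 0.0603 ± 0.0777, and the vesicular glutamate transporter Slc17a7 at 695 ± 59.9 against 0.0646 ± 0.0482. The smallest differences in the list belonged to the v-SNARE Vamp2 (763 ± 45.7 against 59.1 ± 6.05 CPM, log2 3.69 ± 0.08) and the active-zone protein Pclo (302 ± 36.1 against 21.1 ± 3.45 CPM). The GABA transporter Slc32a1 of inhibitory vesicles had no kidney read and was at least 8000-fold higher in brain.

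Receptors and scaffolds of the postsynaptic side followed, with 16 of 17 called higher in brain, all 16 over 4-fold, and a median of 12.58. The kinase Camk2a stood at 1490 ± 92.6 CPM in brain and 0.928 ± 0.569 in kidney, and the AMPA receptor subunit Gria2 at 546 ± 49.3 against 0.0410 ± 0.0420. The NMDA receptor subunit Grin2a (219 ± 25.2 CPM) and the metabotropic receptor Grm5 (172 ± 8.48 CPM) had no kidney read, giving bounds of at least 10000-fold and 8000-fold. The exception was Gphn, gephyrin, which anchors inhibitory receptors and also makes the molybdenum cofactor in other organs: 69.7 ± 2.34 CPM in brain and 93.1 ± 7.28 in kidney (log2 -0.42 ± 0.06), a direction that turned to 0.05 when 12 reference genes set the scale.

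The neuronal cytoskeleton was called higher in brain at 12 of 12 genes. The axonal motor Kif5a lay between 2727 and 3321 CPM in brain and at 2.98, 2.82, 2.48, 2.80 and 2.22 CPM in the kidneys (log2 10.15 ± 0.11, adjusted p = 4.06e-20). Tau, Mapt, was the least separated of the list, at 604 ± 40.9 against 216 ± 21.6 CPM (log2 1.48 ± 0.07).

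Genes of transmitter synthesis and of neuropeptides from several neuron types were present in brain. The GABA-making enzymes Gad1 (498 to 627 CPM, median 586) and Gad2 (296 to 340 CPM, median 308) were below 0.73 CPM in every kidney. Th, which makes catecholamines, ranged from 14.7 to 28.7 CPM and Chat, which makes acetylcholine, averaged 6.09 ± 1.13 CPM, neither with a kidney read. In all 9 of 11 genes were higher in brain. Both exceptions were higher in kidney: the aromatic amino acid decarboxylase Ddc (138, 140, 120, 147 and 89.2 CPM in kidney, 20.7 to 36.3 in brain, log2 -2.30 ± 0.14), and the serotonin transporter Slc6a4 (8.53 ± 1.31 against 3.52 ± 1.51 CPM). Of 15 neuropeptides, all were called higher in brain, with summed levels of 569 and 13.1 CPM. Penk, an opioid precursor, and Cck, cholecystokinin, kept a kidney level of 3.99 ± 0.65 and 6.78 ± 1.01 CPM. Sst (102 ± 12.2 CPM) was without a read in kidney. Hypothalamic peptides were present in all brains but varied: Pmch from 4.08 to 25.6 CPM, Avp from 10.6 to 33.4 CPM and Hcrt at 3.70 ± 3.11 CPM.

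Markers of several brain regions were present together. All 16 markers of cortex, striatum and cerebellum were called higher in brain. Cortical Neurod6 (37.4 ± 3.83 CPM), striatal Drd2 (22.8 ± 4.52 CPM), and cerebellar Cbln3 (138 to 260 CPM) and Gabra6 (68.3 ± 10.9 CPM) were found in every brain. The striatal phosphatase inhibitor Ppp1r1b was at 175 to 299 CPM in brain and at 63.9, 81.2, 77.5, 49.6 and 121 CPM in kidney.

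Among glial genes the myelin list was called higher in brain at 13 of 16. Mobp, a basic protein of compact myelin, was at 1119 ± 69.2 CPM with 1 read in all kidneys. The lineage factor Olig2 (38.2 ± 2.19 CPM) had no kidney read. In 3 members the order was reversed. Mal, a membrane-raft protein of myelin and of epithelial cells, was at 227 ± 8.75 CPM in brain and 315 ± 22.3 in kidney (log2 -0.48), a call that was lost on the reference-gene scale (-0.012). Ugt8a, which makes galactosylceramide, was at 65.2 ± 5.11 against 141 ± 12.0 CPM. Pdgfra, carried by oligodendrocyte precursors and by fibroblasts, was at 50.8 ± 2.51 against 100 ± 23.8 CPM (log2 -0.98 ± 0.11).

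Astrocyte genes were called higher in brain at 11 of 13. Gfap, the astrocyte intermediate filament, was at 340 ± 24.4 against 0.134 ± 0.037 CPM, and the glutamate transporter Slc1a2 at 1933 ± 105 against 12.3 ± 0.65. The folate enzyme Aldh1l1, often used as an astrocyte marker, went the other way: 503, 647, 730, 531 and 719 CPM in the kidneys and 49.5 to 66.4 in the brains (log2 -3.39 ± 0.11, adjusted p = 7.30e-15). Agt, angiotensinogen, was not called (80.0 ± 14.3 against 88.5 ± 16.7 CPM, log2 -0.15 ± 0.13) and was called at 0.31 on the reference-gene scale.

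Summed levels of the microglial genes overlapped between the tissues (384 ± 23.6 CPM in brain and 468 ± 39.2 in kidney). On the main scale the kidney mean was the higher (exact permutation test, adjusted p = 0.00672). Of 12 genes 4 were called higher in brain and 2 in kidney. P2ry12, a purinergic receptor of microglia, was at 18.9 ± 1.40 against 0.667 ± 0.355 CPM, and Siglech at 8.87 ± 0.57 against 0.662 ± 0.327. Genes shared with other macrophages lay close: C1qa was at 41.6 ± 4.48 against 36.3 ± 7.61 CPM and Tyrobp at 7.74 ± 0.88 against 7.85 ± 1.58, neither called. On the reference-gene scale both were called higher in brain (0.45 for Tyrobp and 0.66 for C1qa). C1qa was also called, at 0.30, with the size factors of DESeq2 and by DESeq2 itself, at 0.39 with no scaling, and at 0.33 and 0.29 without kidney 045 or 047. Csf1r, the growth factor receptor of macrophages, was called higher in kidney (60.1 ± 2.54 against 80.6 ± 8.11 CPM, log2 -0.42 ± 0.07) and turned to 0.04 on the reference-gene scale. The list gave 9 calls in brain and 1 in kidney on that scale, 6 and 2 with DESeq2 size factors, and 7 and 2 with no scaling.

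Choroid plexus, the tissue that secretes cerebrospinal fluid, was present in the brain samples. Its carrier protein Ttr was at 579 ± 73.4 CPM against 52.4 ± 12.4 in kidney, and 7 of 9 genes of the list were called higher in brain. Summed levels of the list overlapped, with the higher mean in brain (647 against 501 CPM, exact permutation test, adjusted p = 0.00866). The folate receptor Folr1 (4.50 ± 0.78 against 358 ± 31.2 CPM) and the signalling antagonist Sostdc1 (5.37 ± 1.25 against 86.5 ± 13.2 CPM) were higher in kidney.

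The tubule segments of the kidney were each marked by genes that were nearly silent in brain. All 24 genes of proximal tubule uptake were higher in kidney, with summed levels of 32507 CPM in kidney and 113 in brain and a median difference of -9.84. The phosphate transporter Slc34a1 was at 3814, 4528, 4639, 3428 and 4459 CPM in the kidneys and at most 0.202 in any brain (log2 -15.76 ± 0.20, adjusted p = 1.14e-19). The glucose transporter Slc5a2 was at 464 ± 36.9 against 0.0437 ± 0.0907 CPM, and the urate transporter Slc22a12 at 1519 ± 268 against 0.169 ± 0.082. Miox, the myo-inositol oxygenase of proximal tubule, was at 1101 ± 80.2 CPM with no brain read, at least 67000-fold. The amino acid exchanger subunit Slc7a8 differed least in this list (183 ± 27.1 against 52.7 ± 3.47 CPM, log2 -1.79 ± 0.09).

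Further along the nephron, 10 of 10 thick ascending limb genes were higher in kidney. The sodium-potassium-chloride cotransporter Slc12a1 was at 1725, 2112, 1985, 1909 and 2648 CPM against 0.168 to 0.385 in brain, and the growth factor precursor Egf at 2147 ± 276 against 2.17 ± 0.36. All 10 collecting duct and all 11 intercalated cell genes were also higher in kidney. The vasopressin-regulated water channel Aqp2 lay at 233, 289, 262, 251 and 288 CPM, with 4 reads over all brains. Hsd11b2, which protects the mineralocorticoid receptor from glucocorticoids, was at 142.4 ± 7.96 CPM with 1 brain read. The ammonia channel Rhcg was at 80.0 ± 6.51 against 1.24 ± 0.50 CPM.

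Calcium handling of the distal nephron shared genes with neurons. Of 10 distal convoluted and connecting tubule genes, 6 were higher in kidney and 3 in brain. The thiazide-sensitive cotransporter Slc12a3 was at 1035, 1183, 1023, 959 and 1157 CPM in kidney and 0.162 to 0.669 in brain, and Klk1, a kallikrein, at 1220 ± 117 CPM with 1 read in brain. Pvalb, the parvalbumin of fast interneurons and distal tubule, was higher in brain (112 ± 16.8 against 7.83 ± 2.57 CPM, log2 3.83 ± 0.18), as was the calcium pump Atp2b4 (187 ± 23.0 against 42.0 ± 3.16 CPM). Calb1, calbindin, was not called: the brains lay between 168 and 226 CPM and the kidneys at 189, 234, 243, 243 and 222 (log2 -0.18 ± 0.08, adjusted p = 0.0612), and the sign turned on the reference-gene scale, where it was called higher in brain (0.29). It was called higher in kidney with upper quartile scaling (-0.19) and, at -0.21, -0.20 and -0.18, without brain 030, brain 032 or kidney 045. The sodium-calcium exchanger Slc8a1 was slightly higher in brain (48.4 ± 9.79 against 39.0 ± 3.08 CPM, log2 0.31 ± 0.12), a call that was lost without brain 027, 029 or 032 (0.28, 0.28 and 0.23) and over all 34 aged samples (0.32).

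Podocyte genes were mixed, with 7 of 10 higher in kidney and 3 in brain. The slit diaphragm gene Nphs1, which encodes nephrin, was high in kidney (45.7 ± 2.46 against 1.21 ± 0.34 CPM). Synpo, an actin-associated protein of podocyte foot processes and dendritic spines, was at 124 ± 7.59 CPM in brain and 102 ± 12.0 in kidney. The phosphatase Ptpro and the phospholipase Plce1 were also higher in brain (log2 0.89 ± 0.11 and 1.10 ± 0.09).

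Hormone and vitamin D genes were higher in kidney at 11 of 11. Kl, klotho, the co-receptor for the phosphate hormone FGF23, was at 686 ± 86.2 against 28 ± 5.13 CPM, and Ren1, renin, at 58.7 ± 8.69 against 0.0874 ± 0.0551. Cyp24a1, which inactivates vitamin D, varied among kidneys, at 15.8, 18.2, 23.3, 20.7 and 60.8 CPM, with sample 049 highest. Xenobiotic metabolism was higher in kidney at 16 of 17 genes, with summed levels of 11474 and 85.9 CPM. Cyp4b1 was at 2993 ± 483 against 0.247 ± 0.092 CPM, Cyp2e1 at 1511 ± 130 against 1.56 ± 0.27, and Cyp2j5 (1586 ± 131 CPM) and Akr1c21 (1078 ± 113 CPM) had no brain read. The exception was Gsta4, a glutathione transferase, at 28.7 ± 3.96 and 27.7 ± 3.33 CPM, a difference of 0.05. It was called at 0.25 with no scaling and 0.51 on the reference-gene scale. The difference became -1.09 against the kidneys that the treatment field calls vehicle, which are titled Cmpd60.

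Fuel metabolism divided the tissues by pathway. All 6 gluconeogenic genes were higher in kidney, with summed levels of 13039 CPM in kidney and 111 in brain. Pck1, the rate-setting enzyme, was at 4669, 4920, 3996, 4319 and 3949 CPM in kidney and had no read in brain, a bound of at least 260000-fold. G6pc, which releases free glucose, was at 446 ± 51.6 CPM with 1 brain read. Pcx, pyruvate carboxylase, differed least (909 ± 46.3 against 94.5 ± 4.63 CPM). Fatty acid oxidation and ketogenesis was higher in kidney at 16 of 16 genes, with summed levels of 9159 and 583 CPM and a median of -4.30. The carnitine transferase Cpt1a was at 722 ± 68.5 against 33.4 ± 1.77 CPM and the dehydrogenase Acadm at 888 ± 51.0 against 32.5 ± 1.83. Amino acid metabolism was higher in kidney at 19 of 20 genes, among them Ass1, which makes argininosuccinate on the way to arginine (2041 ± 227 against 29.4 ± 3.15 CPM).

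Glycolysis had no common direction, with 8 of 16 genes higher in brain and 5 in kidney (9 and 2 on the reference-gene scale). Enzyme forms differed. Of the enolase level per exon length, Eno2 made up 59.1% in brain and 0.219% in kidney, where Eno1 made up 99.8%. Aldoc, the aldolase of astrocytes, was at 1015 ± 75.4 CPM in brain and 22.5 ± 3.73 in kidney. Eno2 lay between 718 and 820 CPM in brain and below 2.12 in every kidney. Pkm, pyruvate kinase, was higher in brain (1153 ± 101 against 282 ± 26.9 CPM), and lactate dehydrogenase genes Ldha (193 ± 17.0 against 629 ± 36.9 CPM) and Ldhb (537 ± 63.4 against 1271 ± 60.9 CPM) were higher in kidney. Gapdh was counted at only 6.66 and 9.77 CPM, in a setting in which reads that align to several places are dropped, so its level is not informative.

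Paralogue shares also differed in several sets of ion pump and transporter genes, though not in every set. These shares were computed from counts per exon length and chosen with the values known, so they are given with no test. In the lactate dehydrogenase set they changed little, with Ldhb at 84.0% in brain and 79.3% in kidney. Of the beta subunits of the sodium pump, Atp1b1 was the main form in both tissues, at 77.8% in brain and 95% in kidney. Atp1b2 made up 15.2% and 0.50%, and Atp1b3 was at 106 CPM in both (log2 0.01 ± 0.06). The small pump regulators of the FXYD family differed too. Fxyd2, the gamma subunit, was at 990, 1021, 1233, 922 and 1317 CPM in kidney and 0.669 to 1.01 in brain. Fxyd6 (85.1 ± 7.66 against 6.18 ± 0.59 CPM), Fxyd7 (19.6 ± 1.98 against 0.0353 ± 0.0582) and Fxyd1 (16.05 ± 1.89 against 3.92 ± 0.65) were higher in brain. Of the 7 members, 3 were called in brain and 4 in kidney.

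**Figure D2:**
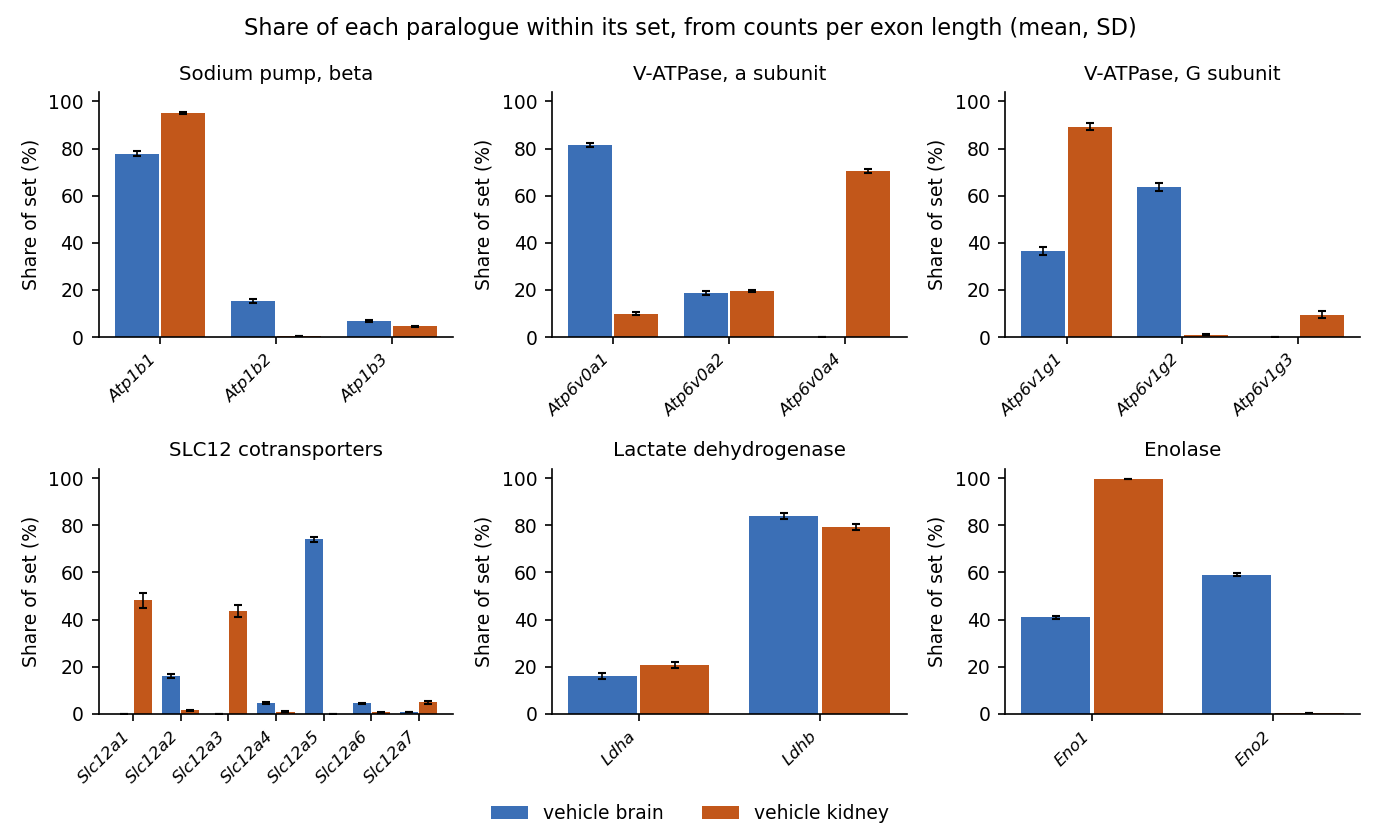
Share of each paralogue in the summed level per exon length of its subunit or family (percent, mean over 6 brains and 5 kidneys). The a4 subunit of the V-ATPase makes up 0.0575% of its set in brain and 70.6% in kidney, and Eno2 59.1% and 0.219% of the enolases. Ldhb makes up 84.0% and 79.3% of the lactate dehydrogenase set.

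The proton pump (V-ATPase) acidifies synaptic vesicles in neurons, lysosomes in all cells and urine in intercalated cells. It had 11 of 25 subunit genes higher in brain and 10 in kidney, or 13 and 8 on the reference-gene scale. On the main scale these counts are near the background of all tested genes (43.2% and 37.3%). Of the membrane subunit a, Atp6v0a1 made up 81.4% in brain and 9.94% in kidney, and Atp6v0a4 0.0575% and 70.6%. The share of Atp6v0a2 was alike, at 18.6% and 19.5%. Atp6v0a4 was at 365, 415, 374, 385 and 366 CPM in the kidneys and 0.0324 to 0.385 in the brains. Of subunit B, the kidney form Atp6v1b1 was 41.1% of the total in kidney and 0.0408% in brain. Of subunit G, Atp6v1g2 was 63.6% in brain and 1.08% in kidney. The main cation-chloride cotransporters also differed between the tissues. Slc12a5, the neuronal chloride extruder, made up 74.0% in brain and 0.0518% in kidney. In kidney Slc12a1 made up 48.2% and Slc12a3 43.6%. Slc12a2, the chloride importer, was called higher in brain (136 ± 10.95 against 74.9 ± 6.57 CPM).

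Water channels were higher in kidney at 7 of 10 genes and in brain at 2. Aqp4, the channel of astrocyte end-feet, was at 138.9 to 162 CPM in brain and at 57.3, 68.8, 68.6, 70.8 and 107 CPM in kidney (log2 1.03 ± 0.12, adjusted p = 4.32e-07), with sample 049 the highest kidney. Against the kidneys that the treatment field calls vehicle, which are titled Cmpd60, the difference was 0.23 and was not called. Aqp1 of proximal tubule and choroid plexus was at 1083 ± 106 CPM in kidney and 8.41 ± 1.54 in brain. Claudins, which seal tight junctions, were higher in kidney at 13 of 21 and in brain at 5. Cldn11 of myelin (119 ± 12.1 against 0.753 ± 0.345 CPM) and Cldn5 of the blood-brain barrier (46.8 ± 5.96 against 10.4 ± 0.71 CPM) were higher in brain, and Cldn2 of the proximal tubule (4.56 ± 0.71 against 579 ± 17.9 CPM) in kidney. Carbonic anhydrases were higher in kidney at 9 of 14 and in brain at 5. The brain members included Car10 (102 ± 12.5 CPM, no kidney read) and Car8 (219 ± 46.1 against 10.1 ± 0.99 CPM). Car12 was at 261 ± 17.2 CPM in kidney and 18.1 ± 1.85 in brain.

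Voltage-gated potassium channels were a neuronal family with a single exception, 20 of 21 genes being higher in brain and 1 in kidney. Kcnc1, a channel of fast-spiking neurons, was at 353 ± 21.6 against 0.0642 ± 0.0837 CPM. Kcnq1, which works in epithelia and heart, was at 33.2, 44.4, 36.1, 36.9 and 52.5 CPM in kidney and 0.356 to 0.879 in brain (log2 -5.94 ± 0.17, adjusted p = 1.73e-15). Clustered protocadherins, which give neurons their surface identity, were higher in brain at 23 of 24 tested genes, with Pcdhb9 at 24.9 ± 2.12 against 1.29 ± 0.50 CPM. Apart from Pcdha11 and Pcdhgc5 the tested genes belong to the beta cluster, so the count describes mainly that cluster.

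Transcription factors followed the tissues closely. Of 16 brain factors 15 were higher in brain, and of 19 kidney factors all were higher in kidney. Hnf4a, the nuclear receptor of proximal tubule, was at 1060, 1172, 1149, 1045 and 1080 CPM in kidney with 1 read over all brains. In brain, Myt1l was at 279 ± 19.3 CPM with 2 reads over all kidneys, and Neurod2 (63.8 ± 5.98 CPM) had none. Mef2c, an activity-regulated neuronal factor that endothelium also uses, was at 303 to 396 CPM against 15.9 to 20.6. Pou3f3, which marks upper cortical layers and also the loop of Henle, was the exception among the brain factors (102 ± 4.31 against 120 ± 14.5 CPM, log2 -0.24 ± 0.07). It was called higher in brain on the reference-gene scale (0.23), and its call was lost with DESeq2 size factors (-0.14), with no scaling (-0.038), over all 34 aged samples (-0.23) and against the kidneys of the treatment field (-0.13). Splicing regulators were divided as sharply. Neuronal factors were higher in brain at 12 of 12 genes (Rbfox3, 265 ± 16.7 against 0.275 ± 0.271 CPM, and Celf4, 527 ± 43.9 against 0.671 ± 0.123 CPM). All 4 genes of the epithelial list were higher in kidney, with Esrp2 at 47.8 ± 4.10 against 0.179 ± 0.119 CPM. That list includes the repressor Ptbp1 (194 ± 12.99 against 30.3 ± 1.84 CPM). Its neuronal counterpart Ptbp2, counted in the neuronal list, was higher in brain (89.6 ± 7.23 against 18.6 ± 1.40 CPM).

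Hox genes, which set position along the body axis in the embryo and stay on in adult organs, were higher in kidney at 29 of 31 tested genes and in brain at 1. The kidneys were tightly grouped at a summed level of 525 ± 10.1 CPM. The brains were scattered, at 26.7, 3.92, 20.2, 8.50, 8.81 and 16.6 CPM. The brain reads came from the front and middle paralogue groups. Over the 16 genes of groups 9 and above, 15 reads were counted in all brains and 25142 in all kidneys, and 12 of these genes had no brain read. Over the 22 genes of lower groups, the counts were 2544 and 48035. Hoxd8 was at 108, 118, 127, 134 and 116 CPM in the kidneys and at most 0.162 in a brain, whereas Hoxb5 reached 2.12 ± 1.66 CPM in brain against 5.58 ± 1.06 in kidney, a call that was lost on the reference-gene scale (-0.93). The gene with the brain call was Hoxd1 (0.219 ± 0.069 against 0.0231 ± 0.0337 CPM, 3 kidney reads, ratio 10.2 with a counting interval of 3.25 to 51.5).

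**Figure D3:**
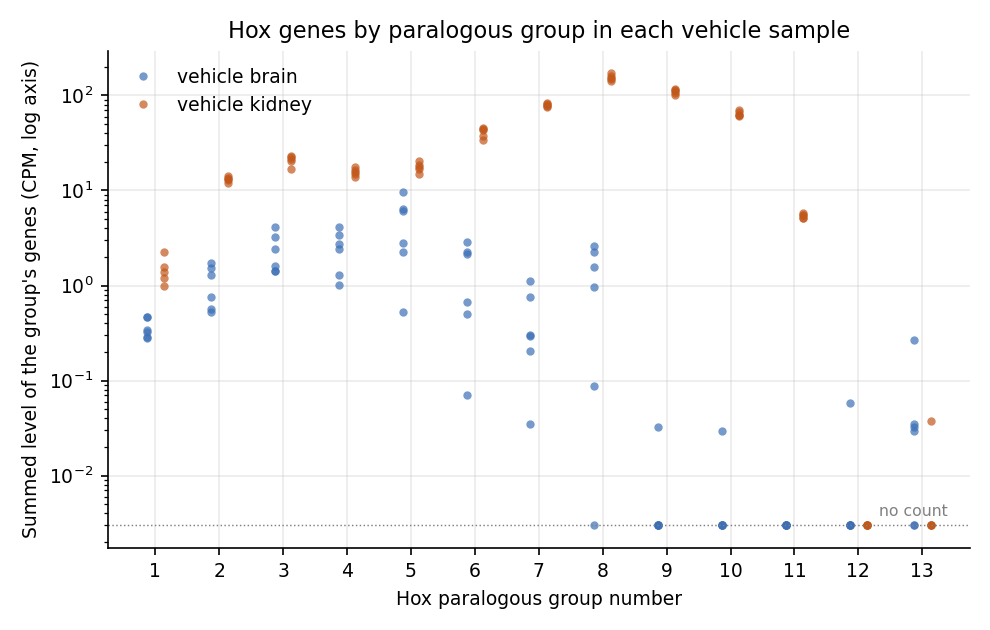
Summed CPM of the Hox genes of each paralogue group in every sample, brains and kidneys as separate points. Reads in brain reach 4.63 ± 3.39 CPM at group 5, and over groups 9 to 11 the brains hold 2 reads in all.

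The histone deacetylases, targets of the drug used elsewhere in the study, were not alike in the vehicle tissues. Hdac1 was at 58.1, 55.4, 57.7, 61.5 and 55.0 CPM in kidney and 20.5 to 23.7 in brain, with no overlap (log2 -1.40 ± 0.06, adjusted p = 4.48e-13). Hdac2 lay between 63.6 and 75.4 CPM in brain and at 52.3, 49.2, 62.4, 57.2 and 64.6 CPM in kidney (log2 0.30 ± 0.08, adjusted p = 0.00174), so that the highest kidney exceeded the lowest brain. Hdac9 (43.7 ± 1.81 against 2.26 ± 0.29 CPM, log2 4.27 ± 0.09) and Hdac11 (226 ± 14.2 against 45.2 ± 2.06 CPM, log2 2.32 ± 0.06) were the widest in favour of brain, and Hdac5 was also higher there (196 ± 12.0 against 73.4 ± 8.72 CPM). Hdac6, the cytoplasmic tubulin deacetylase, was higher in kidney (90.9 ± 7.69 against 41.7 ± 2.51 CPM). In all, 7 of 11 were called in brain and 4 in kidney (7 and 2 on the reference-gene scale). These are RNA levels, and say nothing of enzyme activity.

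Promoters of a few members are shown because their letters carry recognition words of known factors. Each is 100 bases long, ending at the base before the annotated start except for Syn1, where it runs from 242 to 143 bases before it, and is read 5′ to 3′ on the strand of the gene, from RefSeq on GRCm38.p6, with the word in capitals. The HNF4 word CAAAGTCCA lies in Slc3a1, a subunit of the cystine transporter (845 ± 57.4 CPM in kidney, 0.408 ± 0.173 in brain), at chr17:85028247-85028346 on the plus strand. The brain genes are Scg2, secretogranin II of dense-core vesicles, with the cAMP response element TGACGTCA, at chr1:79440027-79440126 on the minus strand, and Syn1, synapsin I, with TTCAGCACC, the left part of the element bound by the repressor REST, at chrX:20921061-20921160 on the minus strand.
Slc3a1: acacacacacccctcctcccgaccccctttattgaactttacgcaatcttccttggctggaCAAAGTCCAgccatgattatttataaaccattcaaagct
Scg2: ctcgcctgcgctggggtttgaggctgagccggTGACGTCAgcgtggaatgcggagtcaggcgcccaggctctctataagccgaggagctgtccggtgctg
Syn1: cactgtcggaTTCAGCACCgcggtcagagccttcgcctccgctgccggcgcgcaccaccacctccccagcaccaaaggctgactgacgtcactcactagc

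The word in capitals ends 31 bases before the start in Slc3a1, 61 in Scg2 and 224 in Syn1. The promoters of Scg2 and Syn1, as searched below, each also hold the word marked in the other, which is not in capitals. Over promoters of 250 bases before and 50 after the start, searched on both strands in 13699 tested genes, CAAAGTCCA was found in 1.56% of the over 4-fold kidney genes and 0.324% of the over 4-fold brain genes, against 0.562% of all 13699. In the other direction TTCAGCACC was found in 1.42% of the brain genes and 0.207% of the kidney genes, against 0.555% of all. TGACGTCA was in 2.76% of the brain genes and 1.35% of the kidney genes, both below the 3.08% of all. The TATA word TATAAA, taken as a general one, was in 12.1% and 15.1%, both above the 10.3% of all. Over every promoter of the RefSeq table, tested or not, the shares were 0.555%, 0.433%, 2.03% and 15.7% in the same order. The HNF1 word GTTAATNAT was searched as well. It was in 2.23% of the kidney genes and 0.365% of the brain genes, against 0.679% of all 13699 and 0.94% of every promoter. A match of letters is a description, not a bound site, and most genes of either class hold none of the factor words.

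Gene structure differed between the classes. Over 16299 protein-coding genes, the median span from start to end was 30.2 kb for genes over 4-fold higher in brain and 20.2 kb for those higher in kidney, against 23.6 kb for all. Spans over 100 kb were found in 25.3% of the brain genes and 9.49% of the kidney genes, against 14.2% of all. Among the 697 genes longer than 250 kb, 50.1% were over 4-fold higher in brain and 6.03% in kidney. Below 50 kb the shares were closer, with 19.1% and 15.2% for genes up to 5 kb and 13.9% and 16.1% for genes of 10 to 25 kb. Of 944 long noncoding RNAs, 30.7% were over 4-fold higher in brain and 13.7% in kidney, against 18.2% and 14.4% of protein-coding genes.

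**Figure D4:**
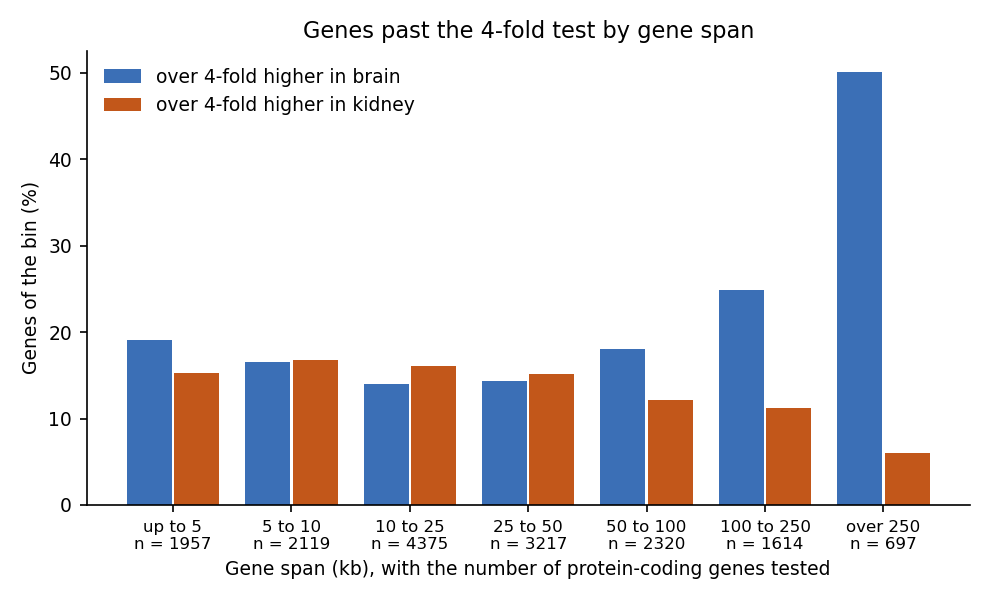
Percent of protein-coding genes over 4-fold higher in brain or in kidney, by the span of the gene from start to end in kilobases. The brain share is 19.1% up to 5 kb, lowest at 10 to 25 kb (13.9%) and highest above 250 kb (50.1%). The kidney share is 15.2%, 16.1% and 6.03% in the same bins.

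Genes of vessels, stroma and immune cells were mostly higher in kidney. Of 12 endothelial genes 11 were higher there, such as Pecam1 (97.5 ± 9.42 against 24.4 ± 2.38 CPM) and the fenestral protein Plvap (185 ± 18.2 against 9.61 ± 0.81 CPM). Genes of the blood-brain barrier were higher in brain at 9 of 10, with the thyroid hormone carrier Slco1c1 at 43.8 ± 2.46 against 0.0924 ± 0.0653 CPM. The exception was the lipid carrier Mfsd2a, not called (20.7 ± 3.36 against 19.2 ± 5.39 CPM). It was called higher in brain, at 0.32, without kidney 045, at 0.56 on the reference-gene scale and at 0.82 against the kidneys that the treatment field calls vehicle. All 10 fibroblast and mural genes were called higher in kidney, from the collagen Col3a1 (110 ± 41.5 against 3.52 ± 0.75 CPM) to the pericyte gene Rgs5 (97.3 ± 9.37 against 86.2 ± 5.86 CPM, log2 -0.17 ± 0.07), whose sign turned on the reference-gene scale and with no scaling, and whose call was lost when any of 8 single samples was left out. Antigen presentation by MHC class II was higher in kidney at 7 of 7 genes, with the invariant chain Cd74 at 380 ± 107 against 4.77 ± 1.39 CPM. T lymphocyte genes were higher in kidney at 7 of 8 and B lymphocyte genes at 9 of 9.

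**Figure D5:**
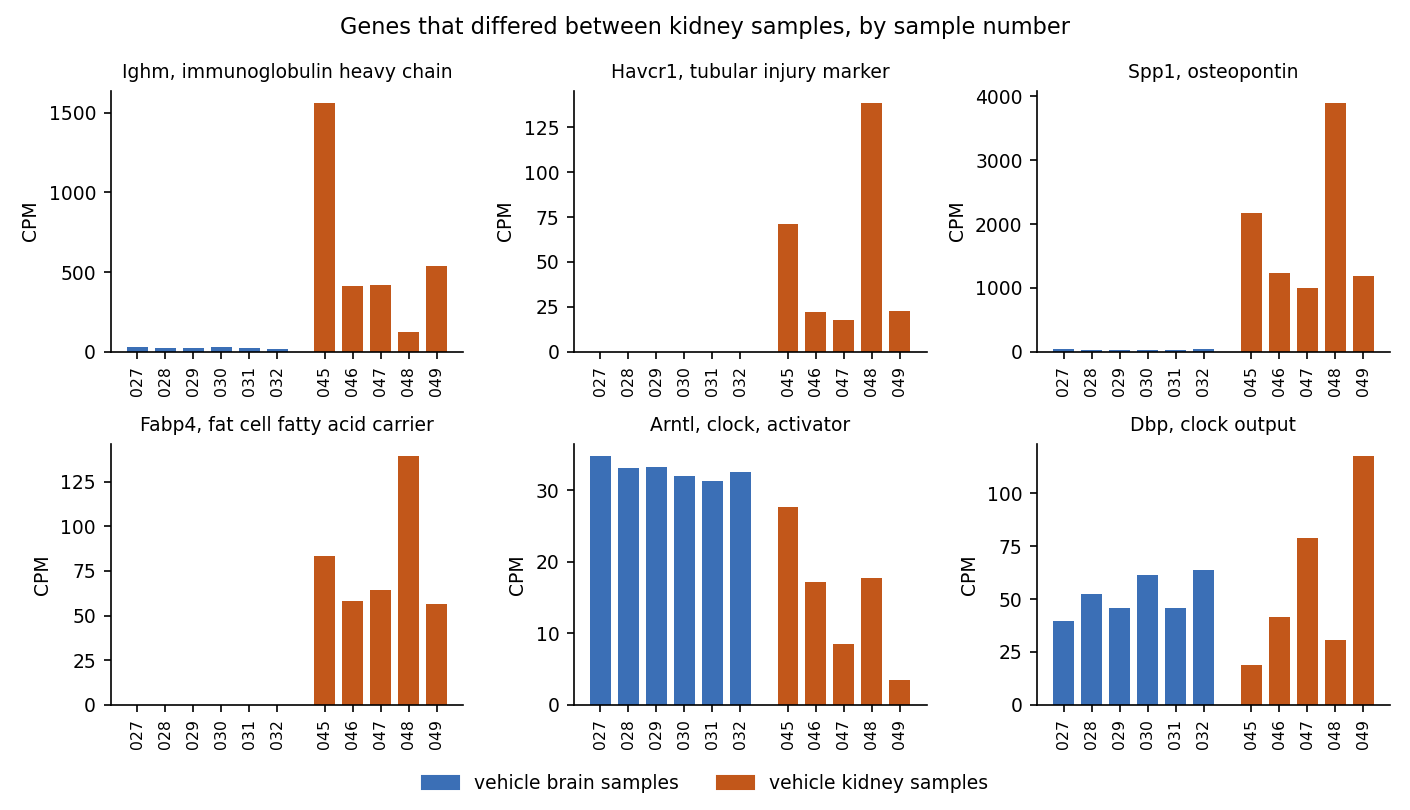
CPM in each of the 5 kidneys and 6 brains, as bars on a linear axis from 0, of genes that varied between mice of the same tissue. Ighm is highest in kidney 045 (1563 CPM against 121 to 541), and Havcr1 in kidney 048 (138.7 CPM against 17.9 to 71.4).

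Kidneys varied more among themselves than brains. The common biological coefficient of variation was 0.103 over the brains and 0.176 over the kidneys, and 0.146 over the kidneys without sample 049. Each value is over the genes that passed the count filter within that tissue. Over the same 8226 genes, at 10 CPM or more in both tissues, the gap was smaller. The median SD of log2 CPM was 0.101 in brain and 0.119 in kidney, and the SD was larger in kidney at 61.2% of them. Immunoglobulin genes were among the most variable. Ighm, the heavy chain of IgM, was at 1563, 414, 418, 121 and 541 CPM, and Jchain, which joins secreted antibodies, at 174, 74.8, 41.9, 46.4 and 55.6 CPM, both highest in sample 045. Tubular injury genes followed another order. Havcr1, the injury marker KIM-1, was at 71.4, 22.3, 17.9, 138.7 and 22.5 CPM with no brain read. Spp1, osteopontin, was at 2170, 1231, 1002, 3899 and 1191 CPM, and Lcn2, also known as NGAL, at 33.0, 18.4, 12.1, 43.3 and 16.01 CPM. Samples 048 and 045 were the highest for all 3 genes. Of the injury and senescence list 7 of 11 genes were higher in kidney and 1 in brain, namely Cdkn2a, which was low in both (0.378 ± 0.274 against 0.0595 ± 0.0454 CPM), a call that was lost against the kidneys of the treatment field. Cdkn1a, p21, was not called (26.1 ± 2.35 against 26.0 ± 8.45 CPM) except higher in brain on the reference-gene scale (0.47).

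Genes of fat varied between the kidneys. All 7 list members were called higher in kidney, with a summed level of 158 ± 96 CPM against 0.196 in brain. Fabp4 was at 83.2, 58.4, 64.4, 139.3 and 56.6 CPM and the brown fat gene Ucp1 at 11.9, 2.97, 0.414, 33.0 and 0.256 CPM, with sample 048 highest for both. The same sample was the highest for Havcr1 and Spp1, and the part of adjoining fat in its values was not tested. Hemoglobin Hba-a1 was present in both tissues (74.6 ± 44.0 against 321 ± 182 CPM). The red blood cell list overlapped between the groups, with the higher mean in kidney (exact permutation test, adjusted p = 0.00456). Liver genes were near 0 in brain and low in kidney, for instance Alb at 10.5 ± 0.85 CPM. In brain the olfactory gene Omp ranged from 2.96 to 21.5 CPM.

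Energy and protein synthesis genes shared by all cells also differed. Transcripts of protein genes of the mitochondrial genome took 5.56 ± 0.81% of kidney counts and 2.70 ± 0.27% of brain counts without overlap, and 11 of 12 were called higher in kidney. With no scaling 10 were called so, and 9 on the reference-gene scale. The shares cover counted reads only. Some of these genes had few, such as mt-Co2, with a kidney median of 132 CPM against 23973 for mt-Co1. Cytosolic ribosomal protein genes were higher in kidney at 62 of 83 and in brain at 5, but at 41 and 14 on the reference-gene scale. Their summed level was 15264 CPM in kidney and 9269 in brain. Many of them have processed copies, and reads shared with a copy are not counted.

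Genes with near equal levels could be found too. Of 2680 genes at 50 CPM or more in both tissues, 919 had a 95% interval of the difference within 0.5 log2 units of 0. Ubqln1, a ubiquitin-binding shuttle, was at 202 to 213 CPM in brain and 194 to 216 in kidney (log2 0.01 ± 0.05), and the chromatin ATPase Morc2a at 50.5 and 50.3 CPM. On the reference-gene scale both, and Atp1b3, were called higher in brain (0.47 each), as they were with no scaling (0.20 to 0.21), and DESeq2 called Ubqln1 at 0.11. Even so, 2272 of the 2680 (84.8%) were called.

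The Cmpd60-treated mice of the same cohort gave a separate comparison of the tissues, with 6 brains and 6 kidneys and no sample shared with the vehicle comparison. These 6 kidneys are the ones that the treatment field calls vehicle. Of 19149 genes called in the vehicle samples and tested there, 18600 (97.1%) had the same direction and 17009 (88.8%) were called the same way. Only 84 were called the opposite way. Of the over 4-fold genes, 7241 of 8042 (90.04%) were over 4-fold the same way. Across 23646 genes the differences correlated with r = 0.975. Genes are not independent replicates, so no p is given. In a fit of all 23 samples the brain to kidney difference itself depended on treatment at 28 of 26403 genes at an adjusted p under 0.05 (2671 at an unadjusted p under 0.05). The signed value, brain minus kidney, was larger in vehicle at 12 of them and smaller at 16. The sign does not say at which genes the gap was wider.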

How the data were processed

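RNA of 11 vehicle samples was sequenced from directional, oligo-dT selected libraries. Per the labels and methods, the authors trimmed reads with Trimmomatic 0.32, aligned them with HISAT2 2.1.0 and counted them per gene, by strand, with HTSeq 0.11.0 at default settings, which drops reads that align to several places. Genes with near-identical copies (Gapdh, ribosomal proteins, hemoglobins, immunoglobulin segments, some mitochondrial genes) are therefore uncertain. The genome build is not given in the sources used here. The deposited values are raw counts per gene, column 2 of each file. Summary lines for uncounted reads (16.7 to 21.9% of all) were left out.

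The 54232 genes were filtered to the 24067 that passed 2 counts in 3 or more samples. edgeR 4.0.16 in R 4.3.3 scaled them by TMM and fitted tissue with the quasi-likelihood test, over these 11 samples, with Benjamini-Hochberg adjustment, and glmTreat tested against 4-fold. Sample-level values were compared by exact permutation, two-sided. Alternatives were other scalings and filters, thinning, all 34 aged samples, the kidneys of the treatment field, single samples left out, DESeq2 1.42.0 and limma 3.58.1. The pipeline was tested on simulated data. Symbols were joined by Ensembl identifier and updated to RefSeq names. Exon lengths came from a GENCODE mouse annotation, by Ensembl identifier, and its build may differ from that of the counts. Gene spans and promoters came from RefSeq tables on GRCm38.p6, by symbol.

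Named genes were the 4 markers, the 10 largest differences in each direction, the 3 highest members of each list and those opposite to it, the 5 most counted genes, the 5 most alike and the 5 most variable, and members of gene families. Other list members are examples chosen after their values were seen. Some list members are not reported here. The members and lists were chosen with earlier results of these data known.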

Additional observations from a re-analysis of the deposited data

Results flagged for a closer look

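Within each tissue, 435 sets of 5 kidneys or 6 brains were checked for a sample far from the others by Dixon's ratio, and 37 had one. Chance alone flags about 1 in 20 sets of genes picked without sight of their values. Many genes here were picked with their values known, some because they varied most, and the sets share genes and samples. A set in which only 1 sample has a read is always flagged. The 37 are thus not measured against that rate. Single samples stood out as follows.

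Kidney 049 had the fewest genes detected at equal depth (19809) and the lowest summed level of fatty acid oxidation genes (8317 CPM). It also had the highest Aqp4 (106.7 CPM), Cyp24a1 (60.82 CPM) and Alb (12.03 CPM) and the lowest Ttr (31.28 CPM) of the kidneys. Kidney 045 had the highest summed B lymphocyte and plasma cell genes (2108 CPM against at most 731 in the others) and the highest Jchain (173.5 CPM). Kidney 048 had the highest summed fat genes (324.8 CPM) and muscle genes (11.3 CPM), with the lowest Cpt1a (600.8 CPM) and Hdac5 (58.03 CPM). Kidney 047 had the highest Kap (13007 CPM) and the lowest Atp6v1g2 (2.774 CPM).

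Brain 030 was the richest in myelin, with 8525 summed CPM and Mbp at 3535 CPM, and the lowest in postsynaptic genes, with 6495 summed CPM, Camk2a at 1310 CPM and the astrocyte transporter Slc1a2 at 1734 CPM. It had the highest Ddc (36.31 CPM). Brain 032 had the lowest share of counts in its 10 most counted genes (4.041%) and the lowest P2ry12 (16.31 CPM), and the highest Car10 (125.2 CPM). Brain 029 had the lowest summed sodium pump genes (6049 CPM) and the lowest Aldoc (873.2 CPM). Brain 031 had the highest Slc6a11 (333.2 CPM).

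The other values were near 0, in the tissue where the gene has few reads. In brain these were Lrp2 (1.329 CPM in 028), Slc12a3 (0.6695 CPM in 029), Atp6v1b1 (0.2798 CPM in 028), Slc5a2 (0.2266 CPM in 032), Hsd11b2 (0.03237 CPM in 032), and G6pc, Hnf4a and Klk1 (each 0.02931 CPM in 030). In kidney they were Myt1l (0.06701 CPM in 045), and Snap25 and Mobp (each 0.0414 CPM in 047).

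The brain to kidney difference depended on treatment at 28 genes by a test of the interaction itself.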

How the results depend on the processing

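The main counts stayed within 1.5 times of their values under every alternative run. Genes called higher in brain ranged from 8783 with at least 10 counts in 3 samples to 12994 on the scale of 12 reference genes, where calls in kidney fell to 6712. With single samples left out they ranged from 10055 to 10617 in brain and from 8473 to 8907 in kidney. DESeq2 gave 10892 and 8477 calls and limma-voom 10558 and 8951. With the kidneys that the treatment field calls vehicle, titled Cmpd60, 10185 and 8492 genes were called, and 91.3% of the calls were made again the same way. Among the named genes the sign was reversed on the reference-gene scale for Gphn (0.046), Csf1r (0.039), Calb1 (0.29), Pou3f3 (0.23), Rgs5 (0.29), Agt (0.31) and Tyrobp (0.45), with no scaling for Rgs5 (0.022), and with the treatment-field kidneys for Gsta4 (-1.09). The common coefficient of variation of the kidneys was 0.146 without sample 049. No paired analysis was possible because the labels give brain and kidney samples different numbers and do not tie them to the same mouse. At these depths, a gene without reads in a tissue is below 0.0164 CPM over the brains or 0.0215 CPM over the kidneys, for counting error only.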
